A study of Mus musculus with 2 samples.

Results

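In 1504 of 37952 one-to-one pairs of enrichment peaks, the peak of the Dnmt3L knockdown library was narrower than the control peak it overlapped. The 2 libraries came from E14 mouse embryonic stem cells, a line of pluripotent cells, transfected with a short hairpin RNA against GFP (shGFP, the control) or against Dnmt3L (shDnmt3L). Each group held 1 library. How far the hairpin lowered Dnmt3L was not analysed here. A pair was one-to-one when a shGFP peak overlapped exactly 1 shDnmt3L peak by at least 1 bp and the reverse. The narrower pairs were chosen by width alone, as those with a shDnmt3L width of 0.8 or less of the shGFP width. They made up 3.96% of all one-to-one pairs, a share that depends on the ratio chosen. The mirror rule of a ratio of 1.25 or more was met by 20.1% of the pairs. The other 28819 pairs lay between these bounds. The shGFP list held 55292 peaks and the shDnmt3L list 45579. Peaks without a partner (14107 and 5724), and peaks that met 2 or more peaks of the other list (245 and 1491), could not be members.

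Dnmt3L resembles the DNA methyltransferases but has no catalytic activity of its own, and it assists Dnmt3a and Dnmt3b in placing new methyl groups on cytosine. It is highly expressed in mouse embryonic stem cells and is needed for methylation marks laid down in germ cells. The Tet enzymes, also active in these cells, oxidise 5-methylcytosine to 5-hydroxymethylcytosine, so both marks occur along the same genome. The sample names and the design text speak of 5-methylcytosine, whereas the labels' protocol describes capture with a kit for 5-hydroxymethylcytosine. The mark behind the peaks is therefore left unnamed, and the edge of a peak is only the place where the peak caller ended the enriched stretch.

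No sequence and no gene is given for the narrower pairs. The peak coordinates are on mm9, per the submitters' processing notes, and no genome or gene annotation of that build was used here. Positions below count the first base of a chromosome as 1. With 1 library per group there is no replicate error and no test, so every value describes these libraries. Wilson 95% intervals on shares cover counting error only and treat pairs as independent. The read depth of both libraries is unknown.

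The narrower pairs were wide among the control peaks and narrow among the knockdown peaks. Their shGFP peaks had a median width of 2928 bp (quartiles 2182 and 3592 bp), against 2115 bp over all one-to-one pairs. Their shDnmt3L peaks had a median of 1925 bp (1574 and 2410 bp), against 2348 bp (2025 and 2714 bp) over all pairs. The control peaks covered 4.52 Mb and the knockdown peaks 3.07 Mb, or 67.8% of the former. The net difference was 1456 kb over the 1504 pairs, with a median of 807 bp per pair and a range of 204 to 3945 bp. All of these widths entered the rule and are given as a description.

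Most narrowing was moderate. The width ratio lay above 0.7 in 797 pairs (53.0%), between 0.6 and 0.7 in 461 and between 0.5 and 0.6 in 174. In 63 pairs it lay between 0.4 and 0.5, and in 9 pairs (0.598%) it was 0.4 or less. The median ratio was 0.709 and the lowest 0.363. The distribution of ratios ran through the threshold with no break. The 3 pairs just inside it had ratios of 0.79988, 0.79980 and 0.79979, and the 3 just outside 0.80010, 0.80031 and 0.80041. The widths of the pair nearest to the threshold on the inside were 3218 and 2574 bp, and of that on the outside 2016 and 1613 bp.

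**Figure D1:**
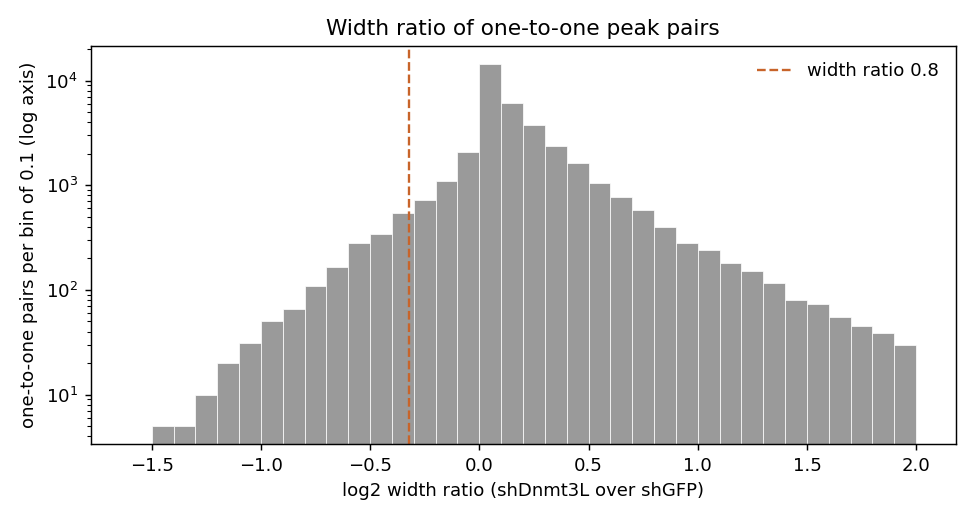
Number of one-to-one pairs (log axis) per bin of 0.1 in the log2 ratio of shDnmt3L to shGFP width, with the ratio of 0.8 as a dashed line. The highest bar, from 0 to 0.1, holds 14389 pairs, the narrower pairs form the left tail without a gap at the line, and 99 pairs with a log2 ratio of 2 or more are not drawn.

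In most narrower pairs, the net loss of width lay at 1 end. The measure sets no limit on how far the opposite end reached outward. A loss was taken as one-sided when at least 90% of the net loss lay at 1 end. This held for 1275 of 1504 pairs (84.8%, Wilson 95% interval 82.9 to 86.5%), and in 229 (15.2%) the loss was divided between the ends. Counting any shortening, however small, both ends were shorter in 299 pairs (19.9%). Among the 7629 pairs that met the mirror rule, the gain was one-sided in 48.9% (47.8 to 50.04%). No difference in shape is read from these shares. Over all one-to-one pairs the median loss was -32 bp at either end, so shDnmt3L edges tended to lie outside the control edges. An outward kept end makes a loss one-sided under this measure, whereas outward edges at both ends can divide a gain. Among the 4012 pairs that were narrower but missed the threshold, 95.7% were one-sided.

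The kept end of the one-sided pairs often lay at the control edge or just outside it. It lay on the same base in 363 of 1275 pairs (28.5%) and exactly 32 bp outside the control edge in 360 (28.2%). Counted over both ends of all 1504 pairs, a shDnmt3L edge exactly 32 bp inside the control edge was found at 0 lower and 1 upper ends. This base takes in the lost ends. A one-sided loss could not lie there, since the lowest net loss was 204 bp, so the counts are not set against each other. The shDnmt3L peak lay wholly within the control peak in 662 pairs (44.0%, 41.5 to 46.5%) and reached at most 32 bp beyond it in 1115 (74.1%). Of the shDnmt3L length, 97.5% overlapped the control peaks. Most of the shDnmt3L length thus lay within the control peaks, although 312 shDnmt3L peaks (20.7%) reached more than 64 bp beyond the control peak at 1 end. Such outward edges were common over all one-to-one pairs, where the first quartile of the loss was -189 bp at lower and -188 bp at upper ends.

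**Figure D2:**
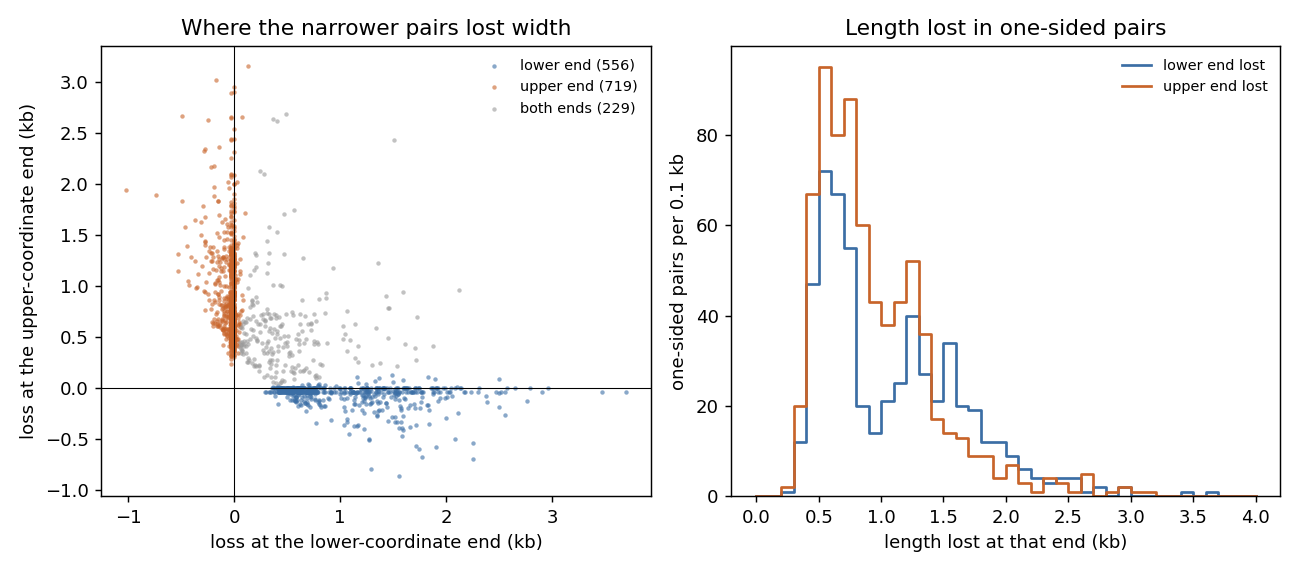
Left, length lost by each narrower pair at its lower-coordinate end against its upper-coordinate end in kb (negative values mean that the shDnmt3L peak reached beyond the shGFP peak), coloured by the end that carried at least 90% of the net loss (both ends where neither did). Right, number of one-sided pairs per 0.1 kb of length lost; the 556 lower-end and 719 upper-end losses both peak near 0.5 to 0.6 kb and have a second, lower rise beyond 1.2 kb.

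Upper ends were lost more often, and the median one-sided loss was longer at lower ends. Over all narrower pairs, the net loss was 777 kb at upper and 678 kb at lower ends. The upper-coordinate end was lost in 719 pairs and the lower-coordinate end in 556, or 43.6% of the one-sided losses (40.9 to 46.3%). The lower end made up 49.7% (48.1 to 51.3%) of the one-sided gains under the mirror rule. The median length lost was 912 bp at lower ends (quartiles 608 and 1471 bp) and 811 bp at upper ends (592 and 1206 bp). The ends are named by coordinate only and carry no direction relative to genes.

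The balance of the ends depended on how strong the narrowing was. Among pairs with a ratio above 0.7, the lower end made up 39.9% (36.4 to 43.5%) of 719 one-sided losses. Between 0.6 and 0.7 it made up 43.5% (38.6 to 48.6%) of 379. Between 0.5 and 0.6 it made up 62.3% (53.4 to 70.4%) of 122, and at 0.5 or less 50.9% (38.1 to 63.6%) of 55. These bounds were chosen after the data were seen. The excess of upper-end losses was thus found in the milder pairs. The opposite order was seen between 0.5 and 0.6, and at 0.5 or less the ends were about even.

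The lengths lost ran on without a gap, and for description they were divided at 900 and 1200 bp. Of the one-sided losses, 686 (53.8%) were under 900 bp, 184 (14.4%) were from 900 bp to under 1200 bp, and 405 (31.8%) were 1200 bp or more. These bounds were set after the distribution was seen. The commonest 0.1 kb bin was 0.5 to 0.6 kb at both ends, with 72 lower-end and 95 upper-end pairs. At lower ends the counts fell to 14 pairs from 0.9 to 1.0 kb and rose again to 40 from 1.2 to 1.3 kb. At upper ends they fell to 38 from 1.0 to 1.1 kb and rose to 52 from 1.2 to 1.3 kb. Losses of 1200 bp or more made up 39.9% of lower-end but 25.5% of upper-end cases. The rule removes short losses from wide peaks, so the left edge of the first range is shaped by it.

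Control width differed between losses under 900 bp and losses of 1200 bp or more. This was in part by construction, since a long loss needs a wide control peak and the threshold bars short losses from wide ones. Pairs that lost under 900 bp went from a median of 2195 bp in shGFP to 1624 bp in shDnmt3L. Pairs that lost 1200 bp or more went from 3739 to 2347 bp, close to the 2348 bp median of all one-to-one shDnmt3L peaks. Their control peaks had nearer neighbours on both sides. The median gap to the next shGFP peak was 8020 bp on the lost and 7538 bp on the kept side, against 14813 and 13941 bp for losses under 900 bp.

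The lost end faced the nearer neighbour about as often as the kept end did. It faced the nearer of the 2 flanking shGFP peaks in 621 of 1275 one-sided pairs (48.7%, 46.0 to 51.4%). The median gap to the next shGFP peak was 10907 bp on the lost side and 10616 bp on the kept side. On the lost side the next shDnmt3L peak was at least 452 bp from the shDnmt3L edge, with a median of 14342 bp. The 229 pairs with a divided loss had a lower median ratio, 0.663 against 0.718 for one-sided pairs, and the end with the smaller loss gave a median of 29.9% of their net loss.

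The share of one-to-one pairs that were narrower was higher at control peaks of 3 kb or more. Their share was 1.36% (1.19 to 1.56%) of 14946 pairs with a shGFP peak of 1 to under 2 kb, and 3.36% (3.10 to 3.64%) of 17259 at 2 to under 3 kb. It then rose to 13.7% (12.6 to 14.9%) of 3711 pairs at 3 to under 4 kb. At 4 to under 6 kb it was 12.5% (10.9 to 14.3%) of 1510, and at 6 to under 10 kb 8.68% (5.62 to 13.2%) of 219. Only 1 of 16 control peaks of 10 kb or more was a narrower pair. Control peaks of 3 kb or more held 718 of the narrower pairs, or 47.7%, though they were 14.4% of all one-to-one pairs. In this width range 13.2% of pairs were narrower and 6.16% met the mirror rule, the opposite order to the lists as a whole. By shDnmt3L width the order was the reverse. There the narrower share was 29.2% under 1 kb, 8.67% at 1 to under 2 kb and 1.85% at 3 to under 4 kb. Both widths are part of the rule, so these shares are a description.

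**Figure D3:**
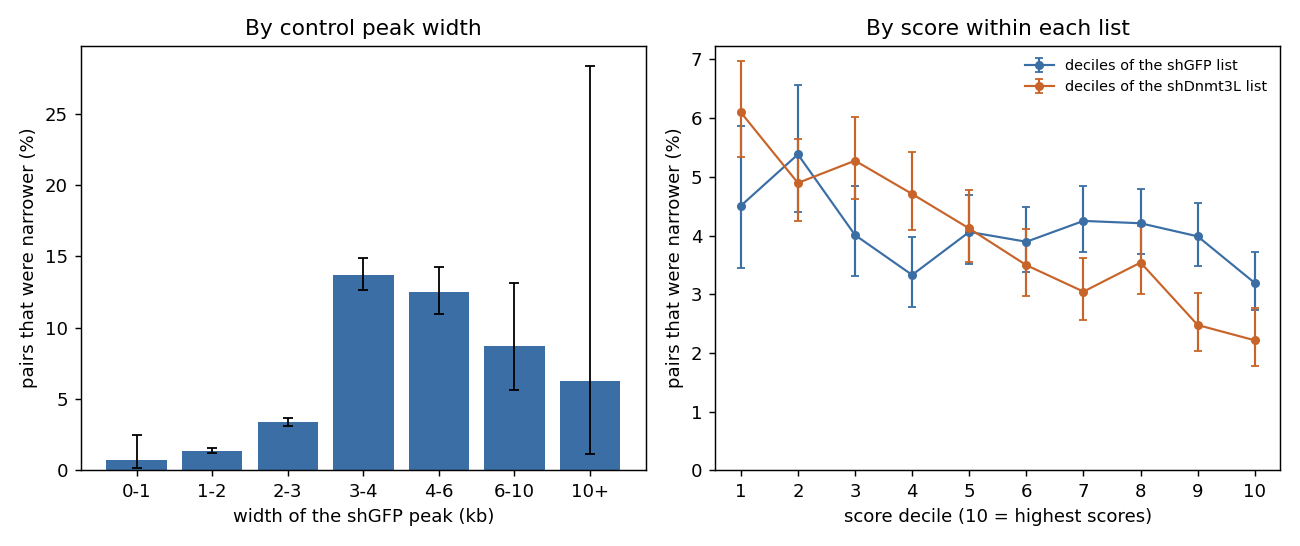
Left, percent of one-to-one pairs that were narrower by width of the shGFP peak in kb; right, the same percent by score decile of the shGFP list and of the shDnmt3L list. Bars and points carry Wilson 95% intervals; the share is highest, 13.7%, at 3 to under 4 kb, and over the shDnmt3L deciles it goes from 6.10% to 2.21%.

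By score, the narrower pairs ranked in the control list much as other one-to-one pairs did, and lower than them in the knockdown list. The score is the value that the authors' peak caller gave each peak, and it is read here only within its own list, as its rank from the lowest score in percent of the list length. In the shGFP list the narrower pairs had a median percentile of 61.8 (quartiles 41.6 and 79.1), against 62.5 over all one-to-one pairs. In the shDnmt3L list it was 39.3 (19.6 and 64.5), against 50.7 over all pairs. The lists differ in length, so no change is read from one percentile to the other.

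Across the shGFP deciles the narrower share stayed between 3.19% in the highest and 5.38% in the second. Across the shDnmt3L deciles it went from 6.10% (5.33 to 6.97%) in the lowest to 2.21% (1.78 to 2.76%) in the highest. The strongest control peaks were also among them, with 158 narrower pairs in the top shGFP decile, or 10.5% of the 1504, against 13.0% of all pairs.

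From 1 kb upwards, wider peaks scored higher in each list, and scores were therefore also compared within width ranges. Among control peaks of 2 to under 3 kb, the narrower pairs had a median shGFP percentile of 48.4 and the other pairs 65.2. At 3 to under 4 kb the medians were 70.8 and 82.5, and at 4 to under 6 kb 86.0 and 92.8. In each of these ranges of control width, the narrower pairs thus had the lower shGFP scores. By shDnmt3L width, their shGFP medians were instead higher at 2 to under 3 kb (74.5 and 62.3 for other pairs), 3 to under 4 kb (86.9 and 78.3) and 4 to under 6 kb (94.5 and 87.3). They were lower under 1 kb (47.1 and 63.2) and at 1 to under 2 kb (44.3 and 46.6). Both widths entered the rule, so these orders are a description. Within ranges of shDnmt3L width the order in the shDnmt3L list was nearly lost. The medians there were 27.5 for narrower and 28.0 for other pairs at 1 to under 2 kb, 49.5 and 48.6 at 2 to under 3 kb, and 73.6 and 73.4 at 3 to under 4 kb. The knockdown peaks therefore scored close to what other shDnmt3L peaks of the same width scored.

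In the 5 pairs with the lowest width ratio, the shDnmt3L peak kept 36.3 to 37.7% of the control width. On chromosome 1, the control peak from 167535626 to 167538839 was 3214 bp wide with a score of 159.8. Its shDnmt3L peak from 167537674 to 167538839 was 1166 bp wide with a score of 122.0. All 2048 bp were lost at the lower end and the upper end was the same base. On chromosome 7, a 4989 bp control peak from 86581886 to 86586874 faced a 1812 bp shDnmt3L peak from 86582373 to 86584184. It lost 487 bp at the lower and 2690 bp at the upper end.

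Of the other 3, 1 lost only its upper end and 2 were cut back at both ends. On chromosome 1 from 155615424 to 155618483, 3060 bp became 1121 bp, with 406 bp lost at the lower and 1533 bp at the upper end. On chromosome 10 from 44100200 to 44103075, 2876 bp became 1058 bp, all of it lost at the upper end, and the neighbouring shGFP peak ended 6 bp below the kept lower end. On chromosome 1 from 64657674 to 64661812, 4139 bp became a central 1559 bp, with 1357 and 1223 bp lost at the 2 ends. The shDnmt3L score of this last pair, 50.07, was close to the lowest of its list, 50, and its percentile was 0.139.

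The largest losses in bases came from broad control peaks, and in 3 of these 5 pairs at least 96.1% of the loss was at 1 end. The largest was on chromosome 8, where the control peak from 122468704 to 122479204 was 10501 bp wide and the shDnmt3L peak 6556 bp, with 1511 bp lost below and 2434 bp above. It was the only narrower pair with a control peak of 10 kb or more. On chromosome 4 the control peak from 57207021 to 57215143 went from 8123 to 4467 bp, with 3694 bp lost at the lower end. On chromosome 5 the peak from 120974893 to 120980602 went from 5710 to 2274 bp, with 3468 bp lost at the lower end and the upper end 32 bp outside. On chromosome 19 the peak from 10540560 to 10548302 went from 7743 to 4462 bp, with 3153 bp lost at the upper end. The fifth was the chromosome 7 pair described above, with a loss of 3177 bp.

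The highest-scoring control peaks among the narrower pairs also ranked high in the knockdown list. Their shGFP percentiles ran from 99.3 to 99.9 and their shDnmt3L percentiles from 98.3 to 99.8. The first, on chromosome 6 from 100519883 to 100524126, scored 1736 in shGFP and 1647 in shDnmt3L, and went from 4244 to 3081 bp with 1210 bp lost at the upper end. The second, on chromosome 15 from 63403353 to 63405630, scored 1113 and 1228 and went from 2278 to 1233 bp, with 437 bp lost below and 608 bp above. It stood alone, with the nearest other shGFP peak 72349 bp away. The remaining 3 lost 927 bp at the upper end (chromosome 13 from 119646828), 1509 bp at the lower end (chromosome 16 from 18221521) and 1340 bp at the lower end (chromosome 2 from 30346805). Narrowing thus also occurred at peaks near the top of both lists.

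**Figure D4:**
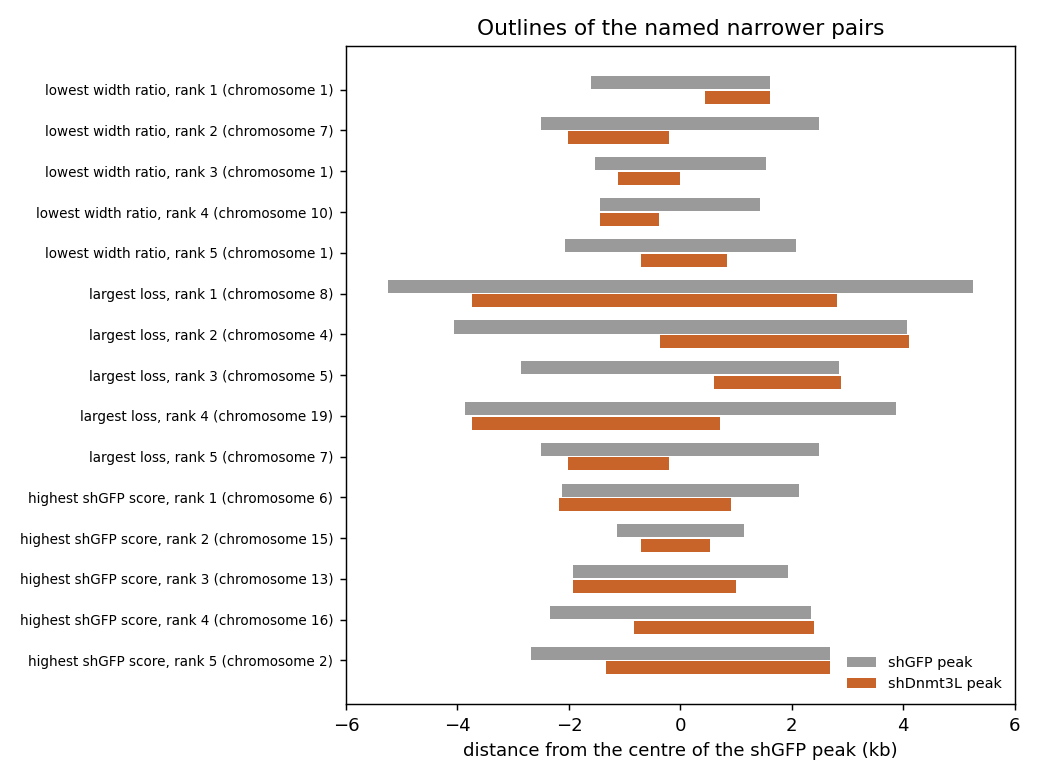
Outlines of the pairs with the lowest width ratio, the largest loss and the highest shGFP score (5 each; the chromosome 7 pair is under the first and the second heading), with the shGFP peak in grey above the shDnmt3L peak in orange, as distance in kb from the centre of the shGFP peak. In most pairs 1 edge of both peaks nearly lines up; the pairs on chromosomes 7, 8 and 15, and ranks 3 and 5 by lowest ratio, are cut back at both ends.

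Most narrower pairs had no other narrower pair within 100 kb, and the same was true of the other one-to-one pairs. When midpoints within 100 kb were joined, the 1504 pairs formed 1275 groups, of which 1095 held a single pair, 144 held 2 and 36 held 3 or more. The largest group held 6. Another narrower pair lay within 100 kb of 27.2% (25.0 to 29.5%) of the narrower pairs, and of 24.2% (23.8 to 24.7%) of the other one-to-one pairs. Within 20 kb these shares were 7.71% (6.47 to 9.17%) and 5.60% (5.37 to 5.84%), within 50 kb 16.7% (14.9 to 18.7%) and 13.5% (13.1 to 13.8%), and within 1 Mb 80.1% and 81.4%. Within 10 kb they were 2.79% (2.07 to 3.75%) and 2.53% (2.37 to 2.69%). The shares are cumulative, and those of the narrower pairs were slightly higher up to 100 kb but not within 1 Mb. When 2 narrower pairs lie close together both are counted, so their intervals understate the counting error. The shares were also not adjusted for how densely peaks lie, so no excess is read from them.

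Seen along the chromosome, the next one-to-one pair was also narrower for 72 of the 1504 (4.79%, 3.82 to 5.99%), against 3.93% (3.73 to 4.13%) for other pairs. The first interval takes in the share of the other pairs, so no excess is read from it. By distance, the shares differed most where the next pair was 10 to under 20 kb away, with 27 of 337 (8.01%, 5.56 to 11.4%) against 3.68% (3.28 to 4.13%). At under 10 kb the shares were 4.91% (3.23 to 7.38%) and 4.07%, at 20 to under 50 kb 3.37% (1.98 to 5.68%) and 3.94%, and at 50 to under 100 kb 3.39% (1.56 to 7.20%) and 4.33%. These were 4 distance ranges read without a test. The pair after a narrower pair had a median width ratio of 1.05, against 1.06 after other pairs, so it was usually not narrower. Across 37930 adjacent pairs the log2 ratios had a Pearson r of 0.057; the pairs share both libraries, and this is a description only.

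Runs of consecutive narrower pairs were short: 1364 pairs stood alone, 64 runs held 2 and 4 runs held 3. On chromosome 15 from 83311285 to 83337057, all 3 pairs of a run lost their lower end, with widths going from 4091 to 2461, from 3122 to 2380 and from 2305 to 1690 bp. On chromosome 13 from 12254647 to 12296971, the 3 pairs also lost their lower ends, from 3252 to 2124, from 2165 to 1635 and from 5008 to 3824 bp. In these 2 of the 4 runs of 3, all pairs thus lost the same end. The span on chromosome 13 held 4 shGFP and 4 shDnmt3L peaks, so it also held peaks outside the run.

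The remaining runs were mixed. On chromosome 8 from 111020207 to 111046859, 2 pairs lost 812 and 778 bp at the upper end and the third lost 1825 bp at the lower end. Both of the first 2 reached 117 bp beyond the control peak at the opposite end. On chromosome 13 from 108892367 to 108930562, the run held 1 loss at both ends, 1 at the upper and 1 at the lower end. The largest net loss among the runs of 2, 5489 bp, lay on chromosome 7 from 86569063 to 86586874, where the pair with the second lowest ratio followed a pair that went from 4291 to 1979 bp. Its span of 17.8 kb held 3 shGFP and 2 shDnmt3L peaks.

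The neighbours of the narrower pairs were compared next. The nearest other shGFP peak had no shDnmt3L partner for 380 of the 1504 (25.3%, 23.1 to 27.5%), and for 25.0% (24.6 to 25.4%) of all one-to-one pairs. When an overlap of 50% of both peaks was asked for, the shares were 28.4% (26.2 to 30.7%) and 30.8%. The median gap to that neighbour was 5281 bp for narrower pairs and 5850 bp for all pairs.

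The narrower pairs were spread over all 19 autosomes and the X chromosome, in near proportion to the one-to-one pairs. The autosomal shares ran from 3.39% on chromosome 3 to 5.02% on chromosome 15, with a median of 3.93%. Chromosome 15, with 80 of 1595 pairs (4.05 to 6.20%), was the only 1 of the 19 whose interval left out the share over all pairs, and 19 intervals were read. Chromosome 8, which has the densest peaks, held 161 of 4094 pairs (3.93%, 3.38 to 4.57%). It had the most narrower pairs per Mb, 1.23, but its share of the narrower pairs, 10.7%, was close to its 10.8% share of all pairs. The X chromosome held 5 of 130 (3.85%, 1.65 to 8.69%), and none of 6 pairs on the Y chromosome was narrower, which allows a share of up to 39.03%.

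**Figure D5:**
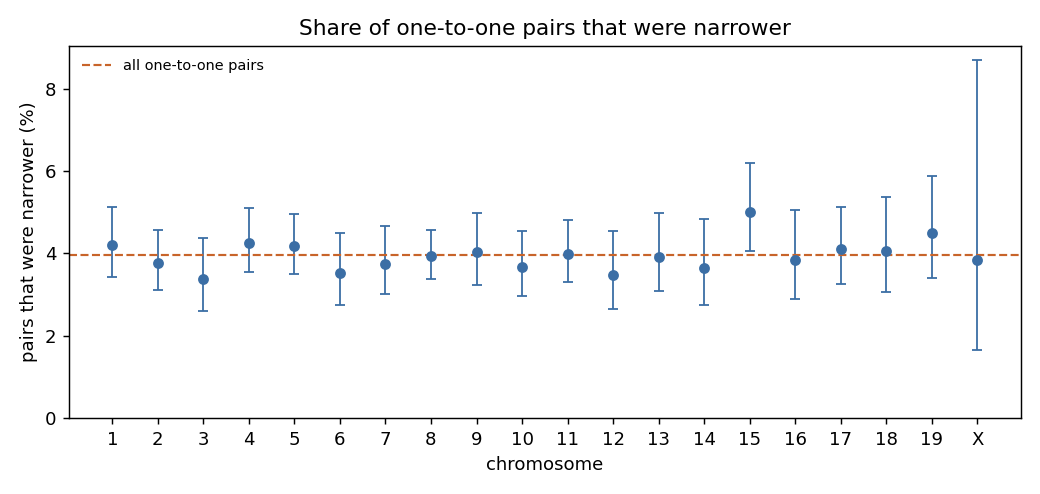
Percent of one-to-one pairs that were narrower on each chromosome with at least 100 pairs, with Wilson 95% intervals; the dashed line marks the share over all pairs, 3.96%. All intervals except that of chromosome 15 (5.02%) cross the line.

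The share varied little along the chromosomes. Each chromosome was divided into 5 parts of equal length up to the end of its last peak, and coordinates start near the centromere in the mouse. The narrower share was 4.02% (3.51 to 4.61%) in part 1, 3.82% in part 2 and 3.55% (3.11 to 4.04%) in part 3. It was 3.81% in part 4 and 4.28% (3.95 to 4.64%) in part 5, at the far end. Part 5 held 37.8% of the narrower pairs and 34.9% of all pairs.

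At 1 Mb, 768 windows held at least 20 one-to-one pairs each, and 72.6% of all pairs. No narrower pair fell in 210 of them (27.3%), and the median share was 3.85%. The highest share was on chromosome 13 from 108000001 to 109000000, with 6 of 21 pairs (28.6%, 13.8 to 49.96%), 3 of them in the run described above. The same window held 8 pairs under the mirror rule, so widths there moved both ways.

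The next windows held 4 of 20 pairs on chromosome 11 from 105000001, 5 of 29 on chromosome 6 from 120000001, 4 of 24 on chromosome 13 from 12000001 and 4 of 25 on chromosome 13 from 24000001. All 4 narrower pairs of the window from 12000001 had lost their lower end. The largest summed loss of the 5 windows, 6346 bp, was in the chromosome 6 window, with ratios from 0.525 to 0.798. These windows were picked for their high share, so their shares are a description.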

How the data were processed

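Genomic DNA of each culture was sonicated, enriched and sequenced, per the labels' protocols. The authors deposited 1 peak list per library, with start, end and a score per peak. The lowest scores, 50.01 and 50, are what −10 times log10 of a p of 1e-05 gives; this is inferred from the values alone. Tools named without a role, per the submitters' processing notes, are MACS 1.4.1, Bowtie 0.12.7 and CASAVA 1.8, with the build mm9. For the input control and duplicate filter, settings were not given in the sources used here. Lists were paired with pandas 2.3.3, numpy 2.4.6 and scipy 1.17.1 under Python 3.11.15. Lower loss is shDnmt3L start minus shGFP start, and upper loss shGFP end minus shDnmt3L end. Tested on simulated data for shDnmt3L against shGFP (55292 peaks), the code found 200 of 200 trimmed peaks, each with the right end. Each was trimmed by the same share of its width, with the kept end left in place or the cut divided evenly. Ratios near the threshold, outward kept ends and uneven cuts were therefore not tried. Named were the 5 pairs of lowest ratio, largest loss and highest shGFP score, the 3 on either side of the threshold, the 5 longest runs and the 5 windows of highest share; ties went by loss, chromosome and start. Members and lists were chosen with earlier results of these data known. No genome or annotation of mm9 was used.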

Additional observations from a re-analysis of the deposited data

How the results depend on the processing

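Of 91 alternative values, 58 stayed within the counting interval (for the number of pairs, within 1.5 times) and 33 moved beyond it. With scores of 100 or more in both lists, 602 pairs were narrower (3.28%), median percentiles were 69.5 in shGFP and 45.7 in shDnmt3L (all pairs 63.1 and 51.0), and chromosome 8 held 16.1% of them against 13.3% of all pairs. With lists of equal length the percentiles were 57.7 and 42.99 (all pairs 57.3 and 53.4). Of the nearest shGFP peaks, 15.4% had no partner, as over all pairs. At 50% overlap the percentiles were 64.8 and 42.8 (all pairs 63.3 and 50.9). There the nearest shGFP peak had no partner in 28.4%, against 30.8% over all pairs. With peaks within 500 bp merged, 5.09% were narrower, and 86.6% of these were one-sided. Their shDnmt3L percentile was 42.6 (all pairs 51.3), and the next pair was narrower in 6.26%. At a ratio of 0.7 or less there were 707 pairs (1.86%), 78.6% one-sided, 49.9% inside the control peak, 48.4% of losses at the lower end (58.8% at 0.6, added later), a shGFP percentile of 66.6, and 2.40% with a narrower next pair. At 0.9 the values were 2822 pairs, 7.44%, 88.7% one-sided, 40.96% inside, a shDnmt3L percentile of 43.1 and 8.47%. With the ratio divided by the median ratio they were 5.53%, 86.8% one-sided and 6.82%. Counting 75% of the loss as one-sided gave 90.8%. The lower-end share passed 50% only at 0.6. A stricter or looser ratio changes the class by construction; otherwise the cause was not tested. Sequence and annotation results were not made. No paired analysis was possible because neither hairpin has a replicate library.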

Other observations

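In 312 narrower pairs (20.7%) the shDnmt3L peak reached more than 64 bp beyond the control peak at 1 end while losing more at the other. The same share was not counted over all one-to-one pairs. Their first quartile of the loss was -189 bp at lower and -188 bp at upper ends, so such outward edges were common. No shift particular to the narrower pairs is read from this. The narrower pair that reached farthest outward, named after its values were seen, lay on chromosome 8 from 127611760 to 127616157. Its 3468 bp shDnmt3L peak began 1016 bp below the control peak and lost 1946 bp at the upper end. In the last 5 Mb of the chromosomes 112 of 2584 pairs were narrower (4.33%, 3.61 to 5.19%), and in the first 5 Mb from the first peak 39 of 1121 (3.48%, 2.56 to 4.72%).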
